A study of Mus musculus with 3 samples.

Results

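The miR-378 family comprised 5 of the 1915 mature microRNAs (miRNAs) listed for the developing mouse retina: mmu-miR-378a-3p, mmu-miR-378a-5p, mmu-miR-378b, mmu-miR-378c and mmu-miR-378d. The forms were chosen by name, and the family was selected on its read counts, RPM values and arm ratio in these same libraries, so all values below are a description and carry no test. Total RNA came from retinas of C57BL/6 mice, with no treatment named in the labels, on postnatal days 1, 7 and 17 (P1, P7 and P17), with the retinas of 5 eyes pooled into 1 small RNA library per age. With a single library per age, differences between ages have no replicate check, and a difference between library preparations cannot be told apart from age. RPM is the number of reads of a miRNA per 1000000 miRNA counts of the library. The 95% intervals below cover counting error only, and hold no spread between animals or libraries. Reads amplified by PCR and not tagged by molecular identifiers do not count molecules, so the intervals may be too narrow even for counting error.

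MiRNAs are short RNAs that guide Argonaute proteins to messenger RNAs, mostly through the seed, bases 2 to 8 from the 5′ end of the mature miRNA. A hairpin precursor is cut into a 5p and a 3p strand, of which usually one, the guide, is retained while the other is largely degraded. MiR-378a is produced from an intron of Ppargc1b, the gene of the transcriptional coactivator PGC-1β, which promotes mitochondrial gene expression, and its guide is the 3p strand. It is known from muscle, liver and brown fat, where it has been linked to energy and lipid metabolism. MiR-378b, miR-378c and miR-378d are named for their likeness to miR-378a-3p and are encoded at other loci.

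The mature sequences of 3 forms were read from RefSeq (GRCm38.p6), and are shown because the forms differ from each other mainly at the seed and at the 3′ end. The seed is in capitals.
mmu-miR-378b: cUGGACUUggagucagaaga
mmu-miR-378c: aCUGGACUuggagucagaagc
mmu-miR-378d: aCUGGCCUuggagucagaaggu
The 3 forms share an unbroken stretch of 14 bases (CUUGGAGUCAGAAG). Counted from the 5′ end of miR-378c, miR-378d carried the substitutions A6C and C21G and a further base at its 3′ end. MiR-378b lacked the first base of miR-378c and carried C21A in the same numbering. Its seed was therefore shifted by 1 base. The seeds of these 3 forms all differed from each other.

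The loci also differed in their surroundings. Mir378b (ENSMUSG00000092985) lies at chr11:88352773-88352864 on the plus strand of GRCm38, the assembly also called mm10, inside an intron of Msi2 but on the opposite strand. Msi2 encodes an RNA-binding protein of progenitor cells. Mir378c (ENSMUSG00000099036) lies at chr14:46954830-46954928 on the minus strand, inside an intron of Samd4 and again opposite to that gene. Mir378d (ENSMUSG00000098756) lies at chr10:126710282-126710391 on the minus strand between genes, 158036 bases from the nearest annotated protein-coding gene, Atp23. The mature form lies on the 3p side of the Mir378b hairpin (bases 67 to 86 of 92) and on the 5p side of the hairpins of Mir378c (bases 4 to 24 of 99) and Mir378d (bases 16 to 37 of 110).

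By contrast, Mir378a (ENSMUSG00000105200), at chr18:61397835-61397900 on the minus strand, lies in intron 1 of Ppargc1b on the same strand as its host, in all 3 annotated host transcripts that span it. Of the 4 hairpins, it alone lies in the sense direction within a protein-coding gene.

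The deposited miRNA counts summed to 11426320 to 12759995 per library, so 1 read was worth 0.0784 to 0.0875 RPM. Reads listed under several names may enter these sums more than once. Comparisons were made over the 648 miRNAs whose 3 values averaged 1 RPM or more. All 5 miR-378 forms were among them, and their lowest value in any library was 8.14 RPM. The 7 miRNAs listed as markers of retina, including miR-124-3p and miR-183-5p, were abundant at every age and summed to 278933, 506752 and 487246 RPM in the order of age. Changes are given on the log2(RPM + 1) scale, which understates those of rare miRNAs, and a miRNA was called when it changed over 2-fold on that scale. Since retinas were measured in bulk, a change in the number of cells that hold a miRNA cannot be told apart from a change in its level per cell.

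MiR-378a-3p, the guide strand, was the most abundant form at each age. The P1 library held 6803 of its reads, a level of 595.4 RPM (Wilson interval 581 to 610). The P7 library held 38514 (3018 RPM, 2988 to 3049) and the P17 library 46944 (4026 RPM, 3990 to 4063). The level thus rose steeply over the first postnatal week and by much less afterwards, with no overlap between the intervals. By read number miR-378a-3p was in place 114 among the miRNAs of the P1 library and in place 33 at both P7 and P17.

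MiR-378c followed, with 1277, 7280 and 8947 reads in the order of age. These corresponded to 111.8 RPM (106 to 118), 570.5 RPM (558 to 584) and 767.3 RPM (752 to 783). MiR-378d had 1003, 5453 and 6131 reads, or 87.8 RPM (82.5 to 93.4), 427.4 RPM (416 to 439) and 525.8 RPM (513 to 539). The order miR-378a-3p, miR-378c, miR-378d was the same in all 3 libraries, and the intervals of these neighbours did not overlap at any age.

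The other two forms were rare. MiR-378a-5p, the strand opposite the guide, had 93, 474 and 1225 reads. Its level went from 8.14 RPM (6.64 to 9.97) through 37.2 RPM (34.0 to 40.6) to 105.1 RPM (99.3 to 111). MiR-378b had 133, 441 and 1328 reads, or 11.6 RPM (9.82 to 13.8), 34.6 RPM (31.5 to 37.9) and 113.9 RPM (108 to 120). The order of these 2 forms switched between ages, and their intervals overlapped at each age. Unlike the abundant forms, both continued to rise clearly between P7 and P17.

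**Figure D1:**
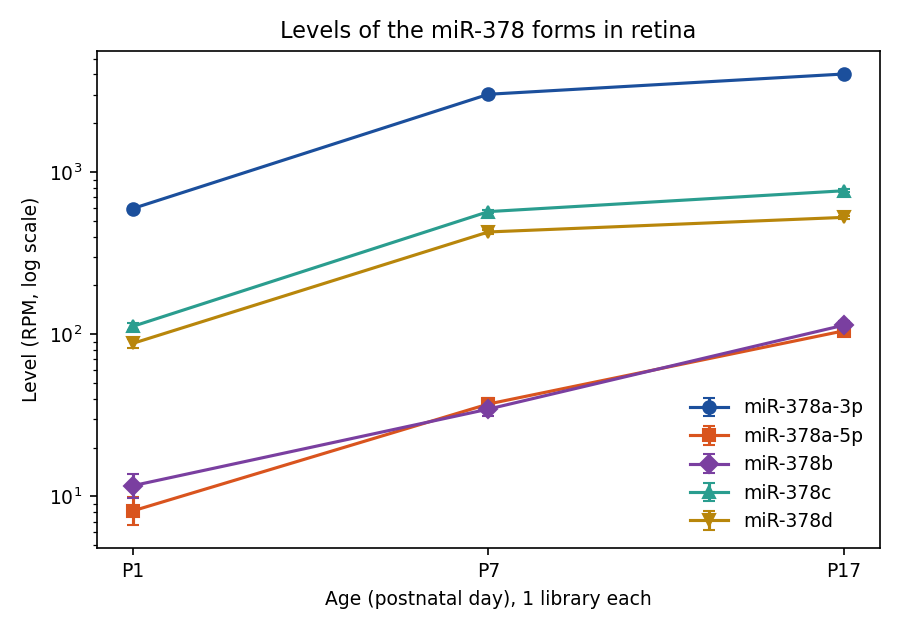
Level of each miR-378 form (RPM, log axis) at P1, P7 and P17, 1 library per age. Points are the deposited RPM values and bars are 95% Wilson intervals (counting error only). MiR-378a-3p, miR-378c and miR-378d run nearly parallel and flatten after P7, while miR-378a-5p and miR-378b keep rising.

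Summed over the 5 forms, the family took 0.0815% of the miRNA counts at P1 (0.0798 to 0.0831), 0.409% at P7 (0.405 to 0.412) and 0.554% at P17 (0.550 to 0.558). The family total was 5.02 times higher at P7 than at P1 (exact binomial interval 4.91 to 5.13), and 1.35 times higher at P17 than at P7 (1.34 to 1.37). From P1 to P17 it rose 6.80-fold (6.65 to 6.95).

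From P1 to P7, when the inner layers of vessels and the photoreceptors of the mouse retina are still forming, all 5 forms were over 2-fold higher. At this step 20 of the 648 miRNAs (3.09%) were called higher, and the miR-378 forms were 5 of these 20. MiR-378a-3p, miR-378b, miR-378c and miR-378d may share reads, so these need not be separate rises. On the log2(RPM + 1) scale miR-378c changed by 2.34, miR-378a-3p by 2.34 and miR-378d by 2.27, which were places 1, 2 and 3 among the rises of all 648 miRNAs. MiR-378a-5p (2.06) was in place 6 and miR-378b (1.49) in place 10. The places between them were held by miR-96-5p (2.23), miR-182-5p (2.13), miR-1298-5p (1.97), miR-183-5p (1.56) and miR-126a-3p (1.53). MiR-96, miR-182 and miR-183 are sensory-cell miRNAs made from one cluster, and miR-126a-3p is the best known miRNA of endothelium. The median miRNA changed by -0.87 at this step, and 290 miRNAs were called lower.

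As ratios of RPM without a pseudocount, miR-378a-3p was 5.07-fold higher at P7 than at P1 (exact binomial interval 4.94 to 5.20) and miR-378c 5.11-fold (4.81 to 5.42). The ratio was 4.87-fold for miR-378d (4.55 to 5.21) and 4.56-fold for miR-378a-5p (3.65 to 5.76). These 4 intervals overlapped. MiR-378b, at 2.97-fold (2.44 to 3.63), rose less than the others, with an interval below theirs.

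From P7 to P17 only miR-378a-5p and miR-378b were called higher, 2 of 5 forms, against 14.0% of all miRNAs (91 of 648). MiR-378b changed by 1.69 and was 3.30-fold higher at P17 (2.96 to 3.68). MiR-378a-5p changed by 1.48 and was 2.83-fold higher (2.54 to 3.15). Among the rises of all miRNAs at this step they took places 34 and 46. The other forms stayed within 2-fold, although each ratio of RPM was above 1 by more than counting error. MiR-378c was 1.34-fold higher (1.30 to 1.39), miR-378a-3p 1.33-fold (1.32 to 1.35) and miR-378d 1.23-fold (1.19 to 1.28), which put them in places 189, 193 and 223. The size of this small rise depended on the scaling. On the log2 scale these forms changed by 0.43, 0.42 and 0.30 with RPM. With a total that leaves out the 10 most abundant miRNAs of each library, the changes were 0.18, 0.17 and 0.05. Median-of-ratios size factors gave 0.51, 0.50 and 0.38.

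From P1 to P17 all 5 forms were called higher, while 10.5% of all miRNAs (68 of 648) were. MiR-378a-5p had the largest change of the family, 3.54, and was in place 5 of 648. It was 12.9-fold higher (10.4 to 16.1), from the lowest starting level. MiR-378b changed by 3.18 (place 8) and was 9.79-fold higher (8.18 to 11.8). MiR-378c changed by 2.77 (6.87-fold, 6.47 to 7.29), miR-378a-3p by 2.76 (6.76-fold, 6.59 to 6.94) and miR-378d by 2.57 (5.99-fold, 5.60 to 6.41). These took places 16, 18 and 22. The family median was 2.77, against -0.91 over all miRNAs.

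**Figure D2:**
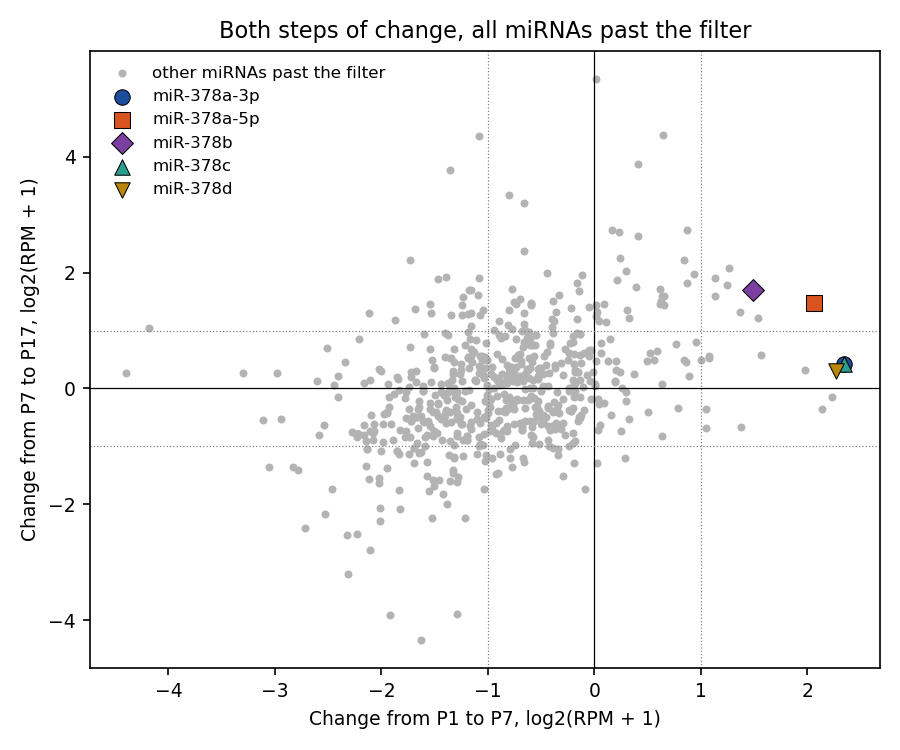
Change from P1 to P7 (x axis) and from P7 to P17 (y axis) on the log2(RPM + 1) scale for the 648 miRNAs past the filter (grey) and the 5 miR-378 forms (coloured symbols). Dotted lines mark a 2-fold change. All 5 forms lie to the right of the 2-fold line on the x axis, and miR-378a-5p and miR-378b also lie above it on the y axis.

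The scaling moved the background but not these calls. RPM is a share of the library, and the median of all miRNAs shifted by -0.91 from P1 to P17, with 68 miRNAs called higher and 303 lower. Size factors set by the median of ratios place the typical miRNA near 0. With them, 165 were higher and 155 lower, and the share called higher was 25.5%. All 5 forms were still over 2-fold higher at P7 than at P1 under that scaling, where 9.57% of miRNAs were, and miR-378a-3p, miR-378c and miR-378d took places 1, 2 and 3. The change of miR-378a-3p from P1 to P17 less the median of all miRNAs was 3.67 with RPM and 3.79 with size factors.

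Ratios between forms of one library do not depend on the scaling, and they showed miR-378c and miR-378d closer to miR-378a-3p than miR-378b and miR-378a-5p, although all 4 were among the closest of the miRNAs compared. For each 100 reads of miR-378a-3p, miR-378c had 18.8 reads at P1 (17.7 to 19.9), 18.9 at P7 (18.4 to 19.4) and 19.1 at P17 (18.6 to 19.5). The 3 intervals overlapped almost fully. Over the 3 libraries its log2 ratio to miR-378a-3p ranged over 0.02, the smallest range of 430 miRNAs that averaged 10 RPM or more and had reads in every library, the median being 3.81. MiR-378d had 14.7 reads per 100 of miR-378a-3p at P1 (13.8 to 15.8), 14.2 at P7 (13.8 to 14.6) and 13.1 at P17 (12.7 to 13.4). Its range, 0.17, was the next smallest. The ranges of miR-378a-5p (1.08, with 8 of the 430 miRNAs smaller) and miR-378b (1.30, with 10 smaller) were wider but also well below the median. The ratio of miR-378d to miR-378a-3p was lower at P17 than at P7 beyond counting error (-0.12 on the log2 scale, -0.17 to -0.06).

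**Figure D3:**
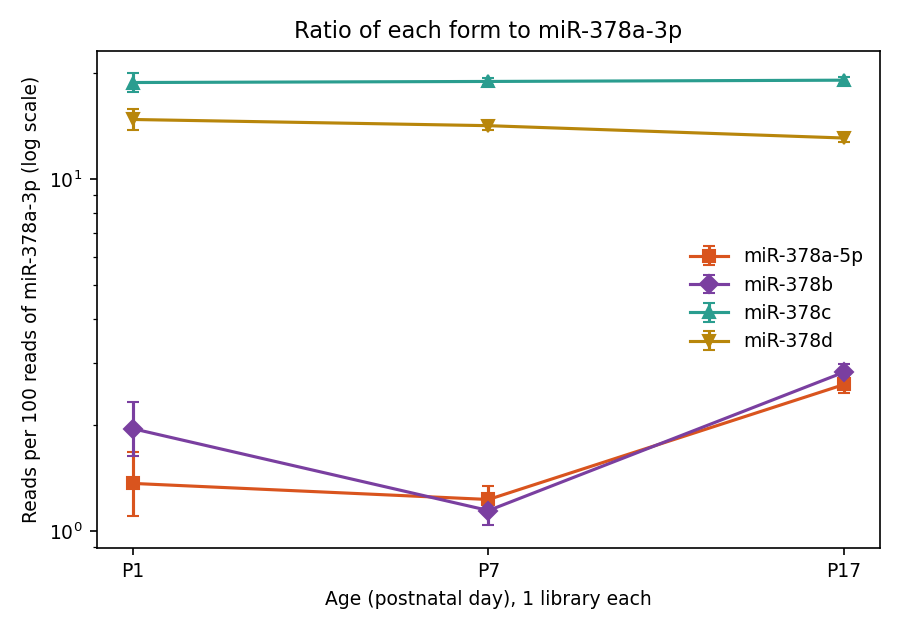
Reads of each miR-378 form per 100 reads of miR-378a-3p (log axis) at P1, P7 and P17, with exact binomial 95% intervals (counting error only). MiR-378c stays at 18.8 to 19.1 reads, miR-378d falls slightly, and miR-378a-5p and miR-378b are lowest at P7 and highest at P17.

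The steadiness of miR-378c and miR-378d comes with a limit of the counting. The forms are near-identical, and the counting rule is not given in the sources used here. For 6 pairs of miRNA names that carry one mature sequence, the deposited reads were the same under both names in all 3 libraries. These were let-7a-1-3p with let-7c-2-3p, miR-199a-3p with miR-199b-3p, miR-344e-5p with miR-344h-5p, and the pairs among miR-465a-3p, miR-465b-3p and miR-465c-3p. Whether reads of miR-378a-3p were also counted under miR-378b, miR-378c or miR-378d was not tested. The levels, changes and places of these 3 forms are uncertain to that extent. The same holds for the family total and for the number of forms called.

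MiR-378b moved differently although it shares most of its bases with miR-378c. It had 1.96 reads per 100 of miR-378a-3p at P1 (1.63 to 2.32), 1.15 at P7 (1.04 to 1.26) and 2.83 at P17 (2.68 to 2.99). Its log2 ratio to miR-378a-3p changed by -0.77 from P1 to P7 (-1.06 to -0.48) and by 1.30 from P7 to P17 (1.15 to 1.46). Both steps exceeded counting error, in opposite directions. Relative to miR-378a-5p, miR-378b changed by -0.62 from P1 to P7 (-1.06 to -0.18) and by 0.22 from P7 to P17 (-0.0017 to 0.44), so the later step of these rare forms did not differ beyond counting error.

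The arms of the miR-378a hairpin remained very unequal. Of the reads of both arms, the 5p arm took 1.35% at P1 (1.09 to 1.65), 1.22% at P7 (1.11 to 1.33) and 2.54% at P17 (2.40 to 2.69). In other words, 73.2 reads of the 3p arm were counted per 5p read at P1 (59.6 to 90.8), 81.3 at P7 (74.2 to 89.1) and 38.3 at P17 (36.2 to 40.6). The intervals of P1 and P7 overlapped, whereas P17 stood apart from both. Of 190 hairpins whose arms both passed the filter and had reads in every library, 11 had a lower 5p to 3p ratio than miR-378a at P1, 11 at P7 and 17 at P17.

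On the log2 scale the 5p to 3p ratio changed by -0.15 from P1 to P7 (exact interval -0.48 to 0.19), a step at which 13.7% of the 190 hairpins moved over 2-fold in either direction. It then changed by 1.08 from P7 to P17 (0.93 to 1.24), past the 2-fold line, as did 23.2% of hairpins, 19 towards the 5p arm and 25 towards the 3p arm. From P1 to P17 the change was 0.93 (0.63 to 1.25), within 2-fold, and 36.8% of hairpins exceeded 2-fold. The middle 90% of hairpins lay between -1.50 and 1.40 from P7 to P17, so that miR-378a was inside the range of the rest, with 18 hairpins moving further towards the 5p arm. In RPM both arms rose at the later step, the guide by 1.33-fold and its partner by 2.83-fold.

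**Figure D4:**
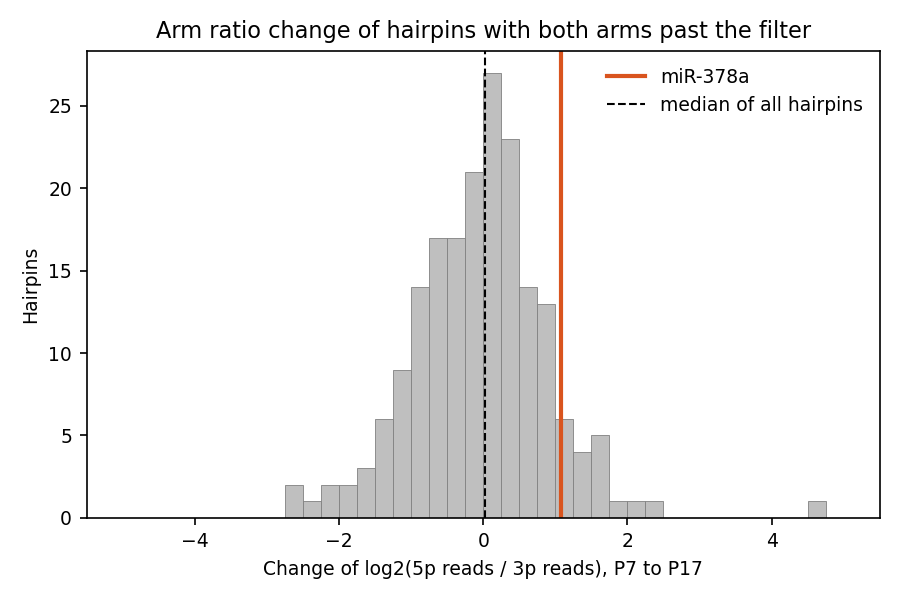
Change from P7 to P17 of the log2 ratio of 5p to 3p reads for the 190 hairpins compared (grey bars, number of hairpins per bin of 0.25). The solid line marks miR-378a at 1.08 and the dashed line the median of all hairpins at 0.02.

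The miRNAs most like miR-378a-3p were sought by the Euclidean distance between their changes at the 2 steps, among 430 other miRNAs that averaged 10 RPM or more. MiR-378c (distance 0.01) and miR-378d (0.14) were nearest. MiR-1298-5p (0.38) followed, with 6.30, 27.7 and 34.9 RPM in the order of age, and then the sensory-cluster miRNAs miR-96-5p (0.57) and miR-183-5p (0.79). MiR-96-5p changed by 2.23 from P1 to P7 but by -0.14 afterwards, whereas miR-378a-3p gained a further 0.42.

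MiR-378a-5p had other neighbours. The nearest was miR-126a-3p (distance 0.58), then miR-378b (0.61) and miR-126a-5p (0.71), followed by miR-344d-3p (0.87) and miR-129-2-3p (1.01), a miRNA enriched in brain. The guide from its own hairpin, miR-378a-3p, was in place 9 (1.10). MiR-126a-3p rose from 1225 RPM to 3547 RPM and then 8290 RPM, and its partner strand from 36.5 to 95.5 and 240.2 RPM. These endothelial markers were both over 2-fold higher from P1 to P17. Of all miRNAs, 10.5% were called higher at this step with RPM and 25.5% with size factors. Both endothelial markers moved with miR-378a-5p and miR-378b, and the part of these markers in the result was not tested.

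Muscle holds much miR-378, so 7 muscle miRNAs were read beside the family. They summed to 160.8 RPM at P1, 107.2 at P7 and 332.9 at P17. Against this, the miR-378 sum was 5.07 times theirs at P1, 38.1 times at P7 and 16.6 times at P17, ratios that do not depend on the scaling. MiR-206-3p, a miRNA of skeletal muscle, had 15.8, 22.7 and 16.9 RPM. MiR-133a-3p, which is found in both skeletal and heart muscle, had 4.81, 2.12 and 6.00 RPM. MiR-208a-3p, a heart miRNA, had 0 reads at each age, which allows a level of up to 0.263, 0.235 and 0.257 RPM. From P1 to P7, miR-1a-3p changed by -0.77 and miR-499-5p by -0.67, but by 0.18 and 0.25 with size factors. MiR-206-3p changed by 0.50, and by 1.40 with size factors, against 3.30 for miR-378a-3p under that scaling.

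At the later step some muscle miRNAs did move in the same direction as the rare miR-378 forms. From P7 to P17 miR-499-5p, a miRNA from an intron of the myosin gene Myh7b, changed by 2.37 (16.9 to 91.3 RPM) and miR-1a-3p by 1.72 (65.1 to 217.2 RPM). MiR-206-3p changed by -0.41. Of the 4 muscle miRNAs past the filter, 1 was called higher from P1 to P17 and none lower, against 10.5% higher and 46.8% lower among all miRNAs. With median-of-ratios size factors all 4 were called higher, against 25.5% of all miRNAs. Their part in the rise of miR-378a-5p and miR-378b after P7 was not tested.

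**Figure D5:**
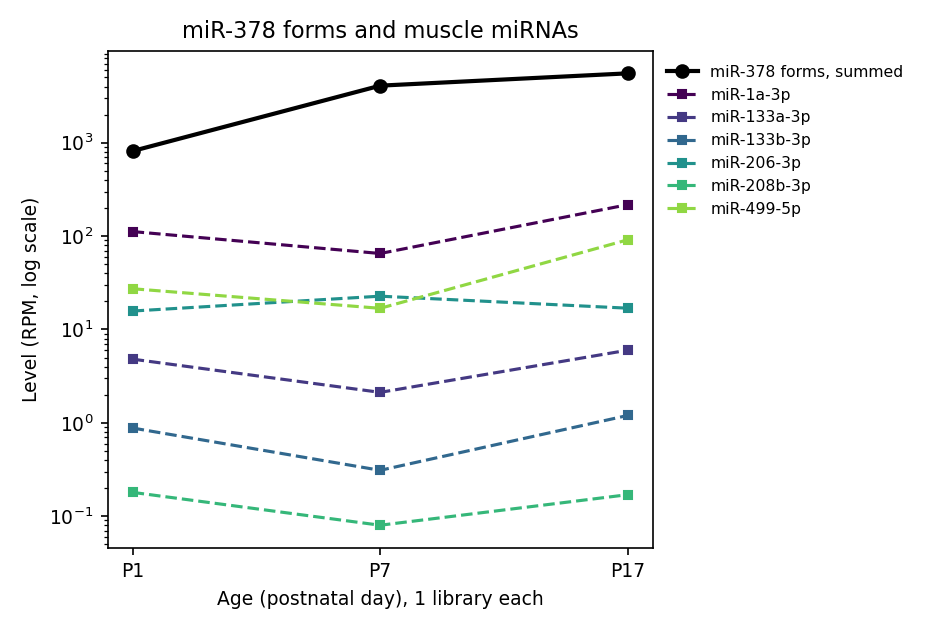
Levels (RPM, log axis) of the 5 miR-378 forms summed (black) and of 6 muscle miRNAs (coloured, dashed) at P1, P7 and P17, 1 library per age. MiR-208a-3p had 0 reads at every age and is not drawn. From P1 to P7 the miR-378 sum rises from 814.7 to 4088 RPM, whereas of the muscle miRNAs only miR-206-3p is higher in RPM (with size factors miR-1a-3p and miR-499-5p are also above 0, at 0.18 and 0.25 on the log2 scale).

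Red-cell miRNAs, read as a sign of blood in the tissue, summed to 277.3, 219.7 and 284.8 RPM in the order of age. MiR-451a, their defining miRNA, had 45.5, 11.7 and 27.9 RPM. MiR-486a-5p and miR-486b-5p had the same reads at each age (114.7, 102.7 and 124.7 RPM), which enter the red-cell sum under both names. Both names also count among the 5 red-cell miRNAs below, and among the 4 called higher with size factors. The liver miRNA miR-122-5p had 5.78, 2.27 and 3.60 RPM. Immune miRNAs summed to 13.6, 17.7 and 35.9 RPM, of which miR-150-5p, a lymphocyte miRNA, had 17.8 RPM at P17. The pigment epithelium miRNAs miR-204-5p and miR-211-5p summed to 15211, 7226 and 14334 RPM. Between P1 and P7 none of these sums rose as much as that of the miR-378 family. From P1 to P17 the miRNAs called higher were 1 of 5 red-cell, 1 of 3 immune, 1 of 2 pigment epithelium, 0 of 1 liver and 4 of 7 retinal miRNAs past the filter, with none called lower, and 4, 3, 1, 0 and 5 were called higher with size factors. The share of all miRNAs called higher was 10.5% with RPM and 25.5% with size factors, and 46.8% were called lower with RPM. Their part in the rise of the miR-378 forms was not tested.

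Of the other miRNAs linked to energy metabolism, none was called higher from P1 to P7 under RPM or size factors. Few were among all 648 miRNAs, 3.09% with RPM and 9.57% with size factors. Of the 13 listed, 12 passed the filter, and from P1 to P17 there were 2 called higher, 5 called lower and 5 within 2-fold, with a median change of -0.01. Over all 648 miRNAs 10.5% were called higher and 46.8% lower at this step. Those called higher were miR-365-3p of brown fat (1.65) and miR-338-3p (1.26), and from P1 to P7 these changed by -0.17 and 0.02 (0.69 and 0.87 with size factors). Members called lower included miR-33-5p (-2.56), from an intron of the sterol regulator gene Srebf2, and miR-210-3p (-1.83), which responds to hypoxia. MiR-103-3p and miR-107-3p, from introns of pantothenate kinase genes, changed by -1.25 and -1.29. With size factors 6 of the 12 were called higher and 1 lower, miR-33-5p at -1.57, and the median was 0.95, where 25.5% of all miRNAs were called higher. Under that scaling too, the largest change among the 12 from P1 to P7 was 0.91, for miR-181c-5p, against 3.30 for miR-378a-3p.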

How the data were processed

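Small RNA libraries were made from total RNA with an NEBNext kit, 1 library per age. As the methods of the study state, adaptors and low-quality reads were removed from 50-nt reads, and clean reads were aligned to mm10 with HISAT2, while the submitters' processing notes name FastQC and BWA. The miRNA annotation and counting rule are not given in the sources used here. The authors deposited, per mature miRNA, a read count that was not normalized and an RPM value, equal within 0.0192 RPM to the count per 1000000 miRNA counts of its library. A read that fits several near-identical miRNAs may therefore raise more than one count.

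The deposited RPM values were used with a pseudocount of 1 RPM, a filter that kept miRNAs averaging 1 RPM or more, and a fold criterion of 2. With 1 library per age, no p-value was computed. The study's DEseq test was not applied. Levels carry Wilson intervals, ratios of 2 libraries or 2 arms exact binomial intervals, and changes of such ratios exact conditional intervals. Ages came from the sample labels. The alternatives were 3 scalings (median-of-ratios size factors from 644 miRNAs, TMM factors, a total that leaves out each library's 10 most abundant miRNAs, 13 in all), pseudocounts of 0.1 and 5 RPM, no filter or 10 RPM, fold criteria of 1.5 and 4, and other arm counts.

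The members, lists and tests were chosen with earlier results of these data known. Named miRNAs are the miR-378 forms, the marker and metabolism lists, and the 5 miRNAs nearest to each miR-378a arm in their changes. The others named were chosen after their values were seen. Loci came from GENCODE M21 (GRCm38). Of the 5 forms, 3 were matched by name to a RefSeq mature sequence. The 2-fold calls and the intervals of ratios between libraries were tested on simulated counts, and the arm ratio change on a made-up 2-fold case. The other steps were not tested in this way. TMM factors came from edgeR 4.0.16 in R 4.3.3, and all else from scipy 1.17.1, pandas 2.3.3, numpy 2.4.6 and matplotlib 3.10.9 in Python 3.11.15.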

Additional observations from a re-analysis of the deposited data

How the results depend on the processing

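All 5 miR-378 forms remained over 2-fold higher at P7 and at P17 than at P1 whichever scaling or pseudocount was used, but the size of the change depended on the scaling. From P1 to P17, miR-378a-3p, miR-378a-5p, miR-378b, miR-378c and miR-378d changed by 3.80, 4.49, 4.16, 3.81 and 3.60 with median-of-ratios size factors, by 3.80, 4.49, 4.16, 3.81 and 3.61 with TMM factors, and by 3.13, 3.88, 3.53, 3.14 and 2.94 with a total that left out the 10 most abundant miRNAs of each library (13 in all). These scalings shift all miRNAs by a similar amount. A pseudocount of 5 RPM, which weighs most on low levels, gave 3.07 for miR-378a-5p and 2.84 for miR-378b. Of all miRNAs, 165 were over 2-fold higher and 155 lower at P17 than at P1 with either size factors or TMM factors, and 38 and 141 with a fold criterion of 4. From P1 to P7, miR-378c, miR-378a-3p and miR-378d took the first 3 places under each scaling, but places 4, 5 and 6 with a pseudocount of 0.1 RPM and places 2, 1 and 4 with 5 RPM. The change of the miR-378a arm ratio stayed within its counting interval at each step with 1 read added to each arm. It also did so with the reads of miR-378b, miR-378c and miR-378d added to those of miR-378a-3p. Of 50 values for single steps of the forms, 27 moved beyond counting error, and none changed its direction. Depth limits miR-378a-5p and miR-378b at P1, which rest on 93 and 133 reads. No paired analysis was possible because there was 1 library per age.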

Other observations

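The constancy of the miR-378c to miR-378a-3p ratio was set beside other near-identical miRNAs, in a comparison chosen after the values were seen. Among miRNAs that averaged 10 RPM or more, with reads in every library and a single mature sequence in RefSeq, 14 pairs of equal length differed by 1 base. The range of their log2 ratio over the 3 libraries had a median of 0.57 and went from 0.27, for miR-106a-5p and miR-17-5p, to 3.99, for miR-204-5p and miR-211-5p. Between these, let-7b-5p and let-7c-5p had a range of 0.28, miR-103-3p and miR-107-3p of 0.37, and miR-29a-3p and miR-29c-3p of 2.32. None of the 14 pairs had a range as small as the 0.02 of miR-378c to miR-378a-3p or the 0.17 of miR-378d to miR-378a-3p, whereas the 1.30 of miR-378b to miR-378a-3p exceeded the median. Other pairs of related names were not compared, and some had nearly equal reads in every library. MiR-374b-5p and miR-374c-5p had 15897 and 15897 reads at P1, 7721 and 7722 at P7, and 3808 and 3809 at P17. MiR-101a-3p and miR-101c had 23093 and 23412 reads at P1, 29518 and 29891 at P7, and 29199 and 29694 at P17. Whether the members of these pairs share reads, and to what extent, is not known, and the cause of the small range of miR-378c was not tested.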
